A study of Mus musculus with 6 samples.

Results

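Mitochondrial protein genes were examined in whole mouse hearts at E11.5 with reduced NKX2-5, the homeobox transcription factor needed for heart development. The genes were taken as the protein-coding genes of the authors' deposited table that carry the gene ontology (GO) term for the mitochondrion and none of 14 other terms, such as those for heart development, sarcomere, protein kinase or ion transport. Alas2 and Ckm were left out. This left 67 genes of the 1492 protein-coding genes listed. They are called mitochondrial here for that term alone. Of the 67, 42 carry no compartment term, that is none for a mitochondrial membrane, the matrix or the intermembrane space. The term for the nucleus is also carried by 13 and that for the cytosol by 10. The rule itself uses no measured value, although the set and the classes used here were chosen with earlier results of these data known. The table itself holds only genes that passed the AC test the authors ran on reads, and a fold change of at least 1.5. Every gene here therefore differs by at least that fold in the authors' values, and how many mitochondrial genes failed the test is not known from the table.

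The 6 samples are hearts labelled WT (3 replicates) and hearts labelled Hypomorph (3 replicates), all of strain C57BL/6 at E11.5, called control and hypomorphic here. The controls are littermates per the series' design text. The hypomorphic hearts come from a line with hypomorphic expression of NKX2-5. The methods name modified Nkx2-5 alleles (gfp, IRES-Cre) but the allele combination of each heart is not stated. No agent or treatment is named. Whole hearts also contain blood, endothelial and mesenchymal cells, so fewer cells of a type and less RNA per cell cannot be told apart.

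The table gives one authors' mean of raw reads and one authors' mean of normalized log2 values per gene and group. It has no value for a single heart, so no spread between hearts, no depth per heart and no test between groups could be computed. A pair of scales is therefore given throughout, the log2 difference of the authors' normalized values (hypomorphic minus control) and the log2 ratio of the authors' raw means. The first exceeded the second by a median of 0.47 over all protein-coding genes and of 0.48 over the mitochondrial genes. This shift equals a factor of 1.38 in favour of hypomorphic hearts. Nkx2-5 was not among the listed genes, so the labels could not be checked with it, and 13 of 15 cardiomyocyte markers were not listed either.

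Mitochondria make most of the ATP of a beating heart. The respiratory chain in the inner membrane passes electrons to cytochrome c oxidase, creatine kinases carry high-energy phosphate to the myofibrils, and several subunits exist in muscle, testis or general forms encoded by separate genes. Mitochondria also hold the first and the last steps of heme synthesis, which developing red blood cells use for hemoglobin. The embryonic heart at this stage is still shifting from glycolysis to oxidative metabolism.

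Hypomorphic hearts had lower values for 34 of the 67 mitochondrial genes and higher values for 33. Among all 1492 listed protein-coding genes 58.0% were lower and 42.0% higher. The share of mitochondrial genes that were lower was 50.7%, with a 95% Wilson interval over genes from 39.1% to 62.3% that includes the share over all genes, and nothing is read from the difference. A fold of at least 2 was reached by 13 lower and 5 higher mitochondrial genes, against 17.9% lower and 14.6% higher over all genes. The median log2 difference was -0.89 among the lower and 0.79 among the higher mitochondrial genes, close to -0.82 and 0.84 over all genes. Some classes held a single direction. All 11 genes of heme and iron were higher on the normalized scale and in raw means, though 5 of them turned lower when raw reads were scaled to the table's total. That total sums raw reads over the listed genes only and is not library depth. Leaving out globin genes moved its factor from 0.775 to 0.990, and no gene of the class then turned lower. The 3 genes of phosphocreatine and the 3 of heart muscle calcium and contraction were all lower. They stayed lower under every scaling tried, as did every other lower mitochondrial gene. No factor tried exceeded the median factor of 1.38, so lower genes could hardly turn.

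**Figure D1:**
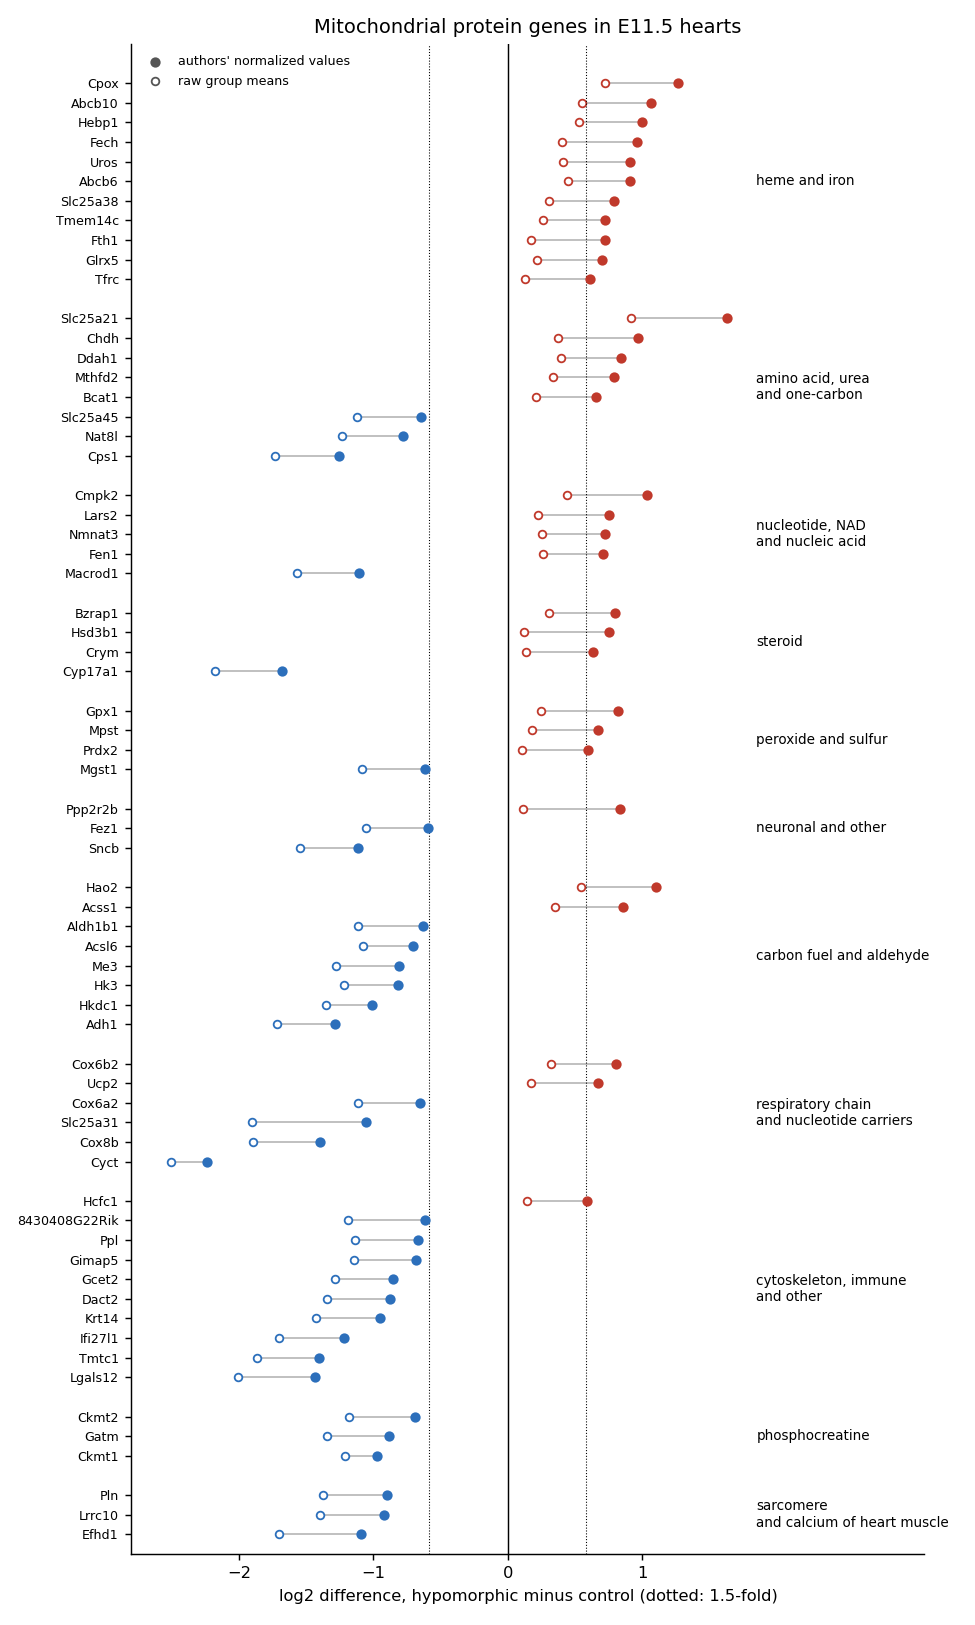
Log2 difference (hypomorphic minus control, x axis) of 65 of the 67 mitochondrial genes, grouped by class, with red for genes higher and blue for genes lower. Filled points are the authors' normalized values, open points the ratio of raw group means, and dotted lines mark 1.5-fold. On the raw scale the 33 lower genes shown stay past the lower line, and 2 of the 32 higher genes shown pass the upper one.

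The scale decides how the higher genes read. Without scaling, the raw means of all 34 lower genes were lower by at least 1.5-fold, where 58.1% of all listed genes were. The normalized difference exceeded the raw ratio for every mitochondrial gene, so no other outcome was possible for the lower ones. Of the 33 higher genes, all had more raw reads in hypomorphic hearts, but only Cpox and Slc25a21 did so by at least 1.5-fold, where 11.1% of all listed genes did. Scaled by the median factor, 33 mitochondrial genes were lower and 30 higher, against 54.4% and 39.7% of all genes. That factor is the median shift between the authors' values and the raw means, so these counts lie near theirs by construction. Scaled to the table's total without globin genes the counts were 34 and 2 (58.1% and 10.5% of all genes), and to the table's total 34 and 0 (58.1% and 3.82%). The median raw log2 ratio of the higher genes was 0.26, against 0.35 for all higher genes of the table. The higher mitochondrial genes were also the more abundant, with a median of 5212 raw reads in hypomorphic hearts, against 182 in control hearts for the lower ones. Over all genes these medians were 513 and 142.

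**Figure D2:**
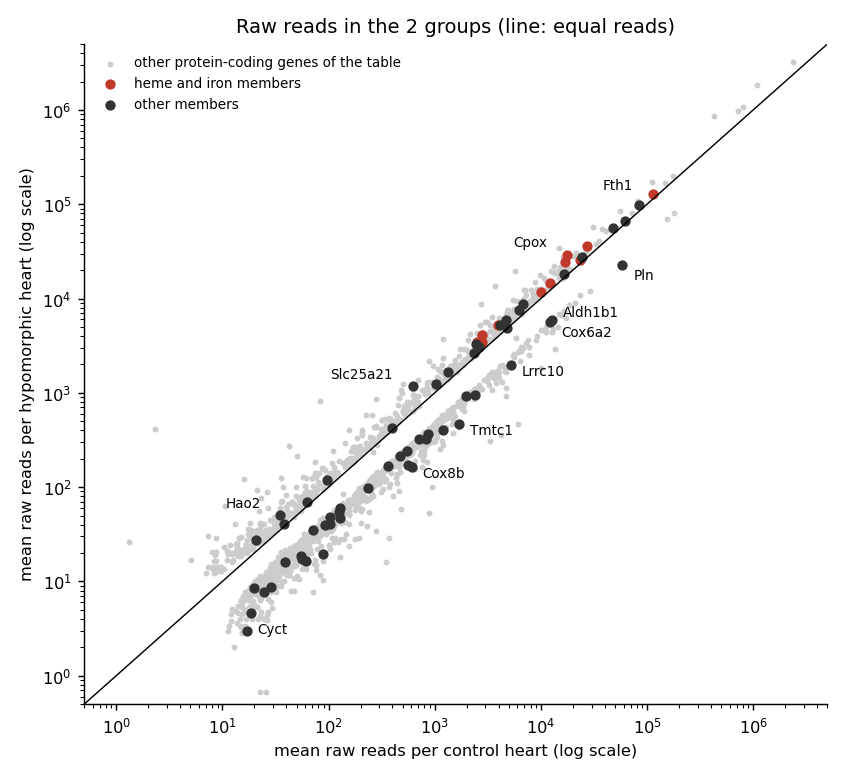
Authors' mean raw reads per gene in control (x axis) and hypomorphic hearts (y axis), both on log scales, for all listed protein-coding genes (grey), the heme and iron genes (red) and the other mitochondrial genes (dark). The line marks equal reads. The heme and iron genes lie just above the line at 3421 to 129259 reads in hypomorphic hearts, and the lower genes form a separate band below it.

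The heme and iron genes made the one class of more than 5 genes with a single direction. Heme synthesis starts with glycine and succinyl-CoA in the matrix, moves to the cytosol, and returns to mitochondria for the closing steps, in which coproporphyrinogen oxidase (Cpox) acts before ferrochelatase (Fech) inserts iron. Cpox had 17721 raw reads in controls and 29279 in hypomorphic ones, a raw ratio of 1.65 and a log2 difference of 1.27. Fech had 26952 and 35645 raw reads and a log2 difference of 0.97. Uros, the uroporphyrinogen synthase of the cytosolic stretch, had 3911 and 5212 raw reads and a log2 difference of 0.91.

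The carriers that serve this pathway were also higher. Abcb10, an inner membrane transporter of erythroid cells, had 16803 raw reads in controls and 24601 in hypomorphic ones (log2 difference 1.07). Abcb6, a porphyrin transporter, had 2506 and 3421 (0.91), and Slc25a38, the carrier that brings glycine into mitochondria, had 2780 and 3440 (0.79). These 3 genes encode membrane transporters. Tmem14c, needed for porphyrin entry, had 12305 and 14742 raw reads, a raw log2 ratio of 0.26 and a log2 difference of 0.72. Glrx5, a glutaredoxin of iron-sulfur cluster assembly, had 10102 and 11759 raw reads, a raw log2 ratio of 0.22 and a log2 difference of 0.70. None of these 5 transport and assembly genes reached 1.5-fold on the raw means, where their log2 ratios ran from 0.22 to 0.55.

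Hebp1, a heme-binding protein, had 2814 raw reads in controls and 4064 in hypomorphic ones, a raw ratio of 1.44, and its normalized log2 values were -0.22 and 0.78. The iron genes stood at the small end of the class. Tfrc, the transferrin receptor that takes up iron, had 23121 and 25303 raw reads, a raw ratio of 1.09 and a log2 difference of 0.62. Fth1, the ferritin heavy chain that stores iron, had 114577 and 129259 raw reads, a raw ratio of 1.13 and a log2 difference of 0.72. Fth1 has processed pseudogenes with which it can share reads. Summed over the 11 genes, raw reads in hypomorphic hearts were 1.23 times those in control hearts. Scaled to the table's total, the log2 difference turned negative for Tfrc (-0.24), Fth1 (-0.19), Glrx5 (-0.15), Tmem14c (-0.11) and Slc25a38 (-0.061), while the other 6 genes of the class remained positive.

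A wider list of 24 genes of heme synthesis and mitochondrial iron gave the same picture. Of these, 14 were listed, all 14 higher, and 10 were not listed, Alas1 and Ppox among them. Genes of this list outside the mitochondrial set included the cytosolic enzymes Alad (log2 difference 1.10) and Urod (0.97), the iron importer Slc25a37 (1.09), which an excluded GO term removed, and Alas2 (1.05), the erythroid form of the rate-limiting enzyme. Over the 14 genes the log2 differences ran from 0.70 to 1.27 with a median of 0.98, and the raw log2 ratios from 0.22 to 0.72 with a median of 0.43.

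Markers of red blood cells moved with these genes. Of 30 erythroid markers 25 were listed, 24 of them higher, with a median log2 difference of 1.22. Their summed raw reads were higher by a ratio of 1.48, and those of the 19 listed markers other than globins by 1.57, with Gata1 at a log2 difference of 1.58 and Slc4a1, the red cell anion exchanger, at 1.30. Tspo2 was the exception at -1.58. No listed marker was at 0 in either group. Their part in the heme result was not tested.

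**Figure D3:**
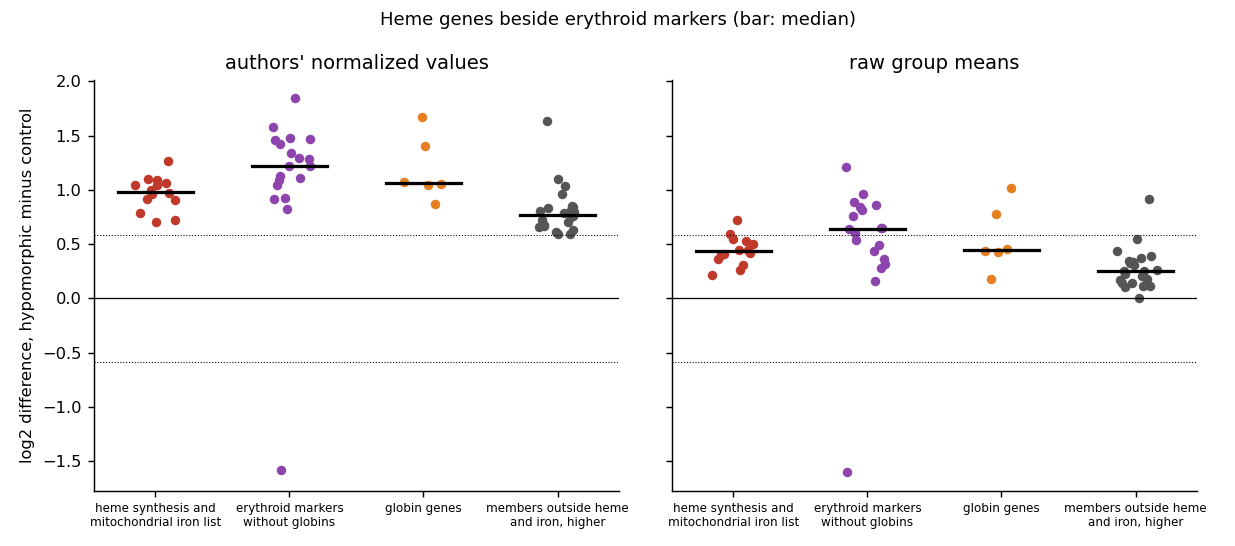
Log2 difference (hypomorphic minus control, y axis) of the 14 listed genes of the heme list, the 19 listed erythroid markers other than globins, the 6 listed globin genes and the 22 higher mitochondrial genes outside heme and iron. Points are genes, bars medians and dotted lines 1.5-fold, with normalized values on the left and raw means on the right, and Alas2 is in both of the first groups. The heme genes lie between 0.70 and 1.27 on the left and between 0.22 and 0.72 on the right.

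In the respiratory chain the muscle forms Cox6a2 and Cox8b were lower. Cytochrome c oxidase takes electrons from cytochrome c, and its subunits 6a and 8 have heart and muscle forms encoded by Cox6a2 and Cox8b. Cox8b, on chromosome 7 of mm9 from 148084842 to 148086345 on the minus strand, had 605 raw reads in controls and 163 in hypomorphic ones, a raw ratio of 0.27 and a log2 difference of -1.40. Cox6a2, on chromosome 7 from 135348950 to 135349880 on the minus strand, had 12181 and 5619 raw reads, a raw ratio of 0.46 and a log2 difference of -0.65. Both were lower on either scale. Per kilobase of the longest annotated transcript, Cox6a2 had 18512 raw reads in controls and 8539 in hypomorphic ones, and Cox8b 1672 and 450. Exons of Cox6a2 overlap Itgad on the opposite strand, and as the counting is not stated to use strand, their reads cannot be told apart, although Itgad itself had only 22.7 and 10.2 raw reads.

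Of the 22 genes listed for cytochrome c and its oxidase, 4 were in the table, 3 lower and 1 higher. The higher gene was Cox6b2, a form of subunit 6b best known from testis, with 1326 raw reads in controls and 1661 in hypomorphic ones, a raw ratio of 1.25 and a log2 difference of 0.80. The other lower gene was Cyct, the testis form of cytochrome c, with 17.0 and 3.00 raw reads and the largest difference of the set at -2.24. Its raw log2 ratio was -2.50 with an exact 95% interval from -3.71 to -1.47, which covers counting error only and takes each group value as the mean over 3 hearts. The 18 others, with Cycs, Cox4i1, Cox6a1, Cox7a1 and Cox8a among them, were not listed.

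Carriers of the inner membrane differed in direction. Slc25a31, an ADP/ATP carrier known from germ cells, had 61.0 raw reads in controls and 16.3 in hypomorphic ones, a log2 difference of -1.05. Its raw log2 ratio was -1.90, so the scales differed by 0.85, more than for any other mitochondrial gene. Ucp2, of the uncoupling protein family, had 24510 and 27582 raw reads and a log2 difference of 0.67, with a raw ratio of 1.13. The general ADP/ATP carriers Slc25a4 and Slc25a5 were not listed.

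The 3 phosphocreatine genes were all lower. Gatm, which makes the precursor of creatine, had 2393 raw reads in controls and 943 in hypomorphic ones (log2 difference -0.88). Ckmt2, the sarcomeric mitochondrial creatine kinase, had 553 and 244 (-0.69), and Ckmt1, the ubiquitous mitochondrial form, 19.7 and 8.51 (-0.97). Exons of Ckmt2 overlap 1700119I11Rik and those of Ckmt1 overlap Strc on the opposite strand, and neither overlapping gene was listed. Ckm, the cytosolic muscle creatine kinase and not in the mitochondrial set, stood at -1.59. Thus 4 of the 7 genes listed for creatine and phosphocreatine were in the table and all 4 were lower, while Ckb, Gamt and Slc6a8 were not listed. The summed raw reads of the 3 mitochondrial genes in hypomorphic hearts were 0.40 times those in control hearts.

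Among the genes of heart muscle that carry the mitochondrion term, Pln and Lrrc10 were abundant and lower. Pln, phospholamban, restrains the calcium pump of the sarcoplasmic reticulum. It had 58680 raw reads in controls and 22582 in hypomorphic ones, a raw ratio of 0.38 and a log2 difference of -0.90. Lrrc10, a leucine-rich repeat protein of cardiomyocytes, had 5175 and 1969 raw reads, again a raw ratio of 0.38, and a log2 difference of -0.92. Efhd1, a calcium-binding protein of mitochondria, had 24.9 and 7.67 raw reads and a log2 difference of -1.09. Exons of Pln overlap Gm10942 and those of Efhd1 overlap Gm16535 on the opposite strand, and neither overlapping gene was listed. Of the 15 cardiomyocyte markers, Nppa was lower at -0.66 and Myl7 higher at 0.63 on the normalized scale. Their part in these results was not tested.

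The promoters of Pln, Lrrc10 and Slc25a38 are shown as those of the heme and iron and the heart muscle classes that hold, within 250 bases before the start, the core letters bound by NKX2-5 (TNAAGTG) or by GATA factors (AGATAA), which act in heart muscle and in red blood cell precursors. Each sequence is the 250 bases before the RefSeq transcription start in GRCm38.p6, 5′ to 3′ along the gene, with capitals at matches on either strand. Slc25a38 is from chr9:120110132-120110381, Lrrc10 from chr10:117045091-117045340 and Pln from chr10:53337436-53337685, all on the plus strand.
Slc25a38: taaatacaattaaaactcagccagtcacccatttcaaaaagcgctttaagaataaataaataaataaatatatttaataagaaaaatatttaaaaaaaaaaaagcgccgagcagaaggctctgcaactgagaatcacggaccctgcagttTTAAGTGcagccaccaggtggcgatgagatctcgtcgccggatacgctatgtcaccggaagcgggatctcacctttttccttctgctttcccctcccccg
Lrrc10: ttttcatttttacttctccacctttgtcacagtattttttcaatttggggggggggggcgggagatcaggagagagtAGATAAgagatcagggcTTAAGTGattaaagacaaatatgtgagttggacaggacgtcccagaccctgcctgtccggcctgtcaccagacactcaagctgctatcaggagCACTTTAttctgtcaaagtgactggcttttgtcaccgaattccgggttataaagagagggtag
Pln: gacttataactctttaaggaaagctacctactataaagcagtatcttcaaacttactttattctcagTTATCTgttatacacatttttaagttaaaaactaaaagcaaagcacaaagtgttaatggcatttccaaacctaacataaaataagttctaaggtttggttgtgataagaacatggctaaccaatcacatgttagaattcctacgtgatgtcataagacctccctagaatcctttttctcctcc

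Lrrc10 held TNAAGTG 156 and 63 bases before the start and AGATAA 173 bases before it. Slc25a38 held TNAAGTG 100 bases before the start, and Pln held AGATAA at 183 bases on the opposite strand. In windows of 300 bases (250 before to 50 after a start, both strands), 9 of the 54 genes with a RefSeq promoter held TNAAGTG (16.7%), where 13.1% of all 27025 genes did. For AGATAA the number was 7 of 54 (13.0%, against 12.7% of all genes), with Cpox the only heme and iron gene among 10. Of the 8 other motifs searched, CACCC was in 39 genes (72.2%, against 59.8%) and CATTCC in 4 (16.6% of all genes). CCACACCC, which contains CACCC, was in 4 (4.09% of all genes), TNAAGGTCA in 2 (1.43%), the MEF2 motif in 2 (4.23%), the NRF1 motif in Abcb10 alone (1.07%), and TGACGCAA and the NF-E2 motif in 0 (0.562% and 0.167%). A match is only a match of letters in this window.

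Of the 4 enzymes that handle peroxides and sulfur 3 were higher, and all 4 had over 1000 raw reads. Over all listed genes 41.0% were lower from 1000 to under 10000 raw reads and 23.2% above that. Nothing is therefore read from the count. Gpx1, a glutathione peroxidase, had 47385 raw reads in controls and 56290 in hypomorphic ones (log2 difference 0.82). Prdx2, a peroxiredoxin abundant in red blood cells, had 61671 and 66538 (0.60), and Mpst, a sulfurtransferase, 2329 and 2633 (0.67). The raw ratios of these 3 genes were 1.19, 1.08 and 1.13. Mgst1, a membrane glutathione transferase, was lower at 1977 and 932 raw reads (-0.61). Prdx2 overlaps Rnaseh2a on the opposite strand. Of 18 genes listed for peroxide and glutathione enzymes Gpx1, Prdx2 and Mgst1 were the 3 in the table, and Sod2, Prdx3 and Txn2 were not listed.

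In amino acid, urea and one-carbon metabolism, 5 of 8 genes were higher and 3 lower, where 42.0% of all listed genes were higher. Nothing is read from so few genes. Slc25a21, the carrier of oxodicarboxylates, had the largest higher difference of the mitochondrial set, with 627 raw reads in controls and 1185 in the hypomorphic group, a raw ratio of 1.89 and a log2 difference of 1.63. It lies on chromosome 12 of mm9 from 57813621 to 58298459 on the minus strand, and an exon overlaps Pax9 on the plus strand, whose reads cannot be told apart from its own and which was not listed. Ddah1, which breaks down methylated arginines, had 6730 and 8836 raw reads (0.84). Mthfd2, the mitochondrial methylenetetrahydrofolate dehydrogenase of growing cells, had 4712 and 5942 (0.79) and Bcat1, a branched-chain aminotransferase, 2632 and 3041 (0.66). For these 3 genes the raw ratios were 1.31, 1.26 and 1.16.

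Chdh, choline dehydrogenase, had only 20.9 and 27.2 raw reads, and its raw log2 ratio of 0.38 had a counting interval from -0.11 to 0.88. The lower genes were Nat8l, which makes N-acetylaspartate, with 863 and 368 raw reads (-0.78), Slc25a45 with 362 and 166 (-0.64) and Cps1, the first enzyme of the urea cycle, with 28.7 and 8.65 (-1.26). Cps1 is best known from liver. Of 12 hepatocyte markers 4 were listed, all 4 lower at log2 differences from -2.11 to -0.80, with summed raw reads of 497 in control and 130 in hypomorphic hearts and no listed marker at 0. Their part in the value of Cps1 was not tested.

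Fuel and aldehyde enzymes were lower in 6 of 8 cases, where 58.0% of all listed genes were lower, and nothing is read from the count. Aldh1b1, a mitochondrial aldehyde dehydrogenase, was the most abundant with 12752 raw reads in controls and 5876 in hypomorphic ones, a log2 difference of -0.63. Me3, a mitochondrial malic enzyme, had 236 and 97.2 (-0.81), and Acsl6, an acyl-CoA synthetase, 102 and 48.5 (-0.70). Adh1, an alcohol dehydrogenase, had 56.3 and 17.1 (-1.28). On the raw means these 4 genes had ratios of 0.46, 0.41, 0.48 and 0.30.

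Both hexokinases in the set were lower, Hkdc1 with 104 and 40.7 raw reads (log2 difference -1.01) and Hk3, a hexokinase of white blood cells, with 93.1 and 39.9 (-0.82). Macrophage markers were lower with it, 5 of 12 being listed and all 5 lower, from -3.59 to -0.62, with summed raw reads of 5367 and 870 and no listed marker at 0, and their part was not tested. The higher genes were Acss1, which makes acetyl-CoA from acetate, with 4144 and 5277 raw reads (0.86), and Hao2, a hydroxyacid oxidase, with 34.6 and 50.4 (1.10). Hao2 and Hsd3b1 lie 14.8 kb apart on chromosome 3 and were both higher.

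The 4 genes linked to steroid or thyroid hormones had at most 426 raw reads in either group. Cyp17a1, a steroid hydroxylase, had the largest lower difference among genes with at least 50 raw reads, with 89.1 and 19.7, a raw ratio of 0.22 and a log2 difference of -1.68. Hsd3b1, a hydroxysteroid dehydrogenase with close paralogs whose reads it can share, had 426 raw reads in hypomorphic hearts, a raw ratio of 1.09 and a log2 difference of 0.76. Bzrap1, which binds the outer membrane protein Tspo, differed by 0.80 and Crym, a thyroid hormone binding protein, by 0.63. The counting interval of the raw log2 ratio of Crym ran from -0.15 to 0.43.

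Among genes of nucleotides, NAD and nucleic acids, 4 of 5 were higher, where 42.0% of all listed genes were. All 5 had over 1000 raw reads, a range in which most listed genes were higher, and nothing is read from the count. Lars2, the mitochondrial leucyl-tRNA synthetase, had 83488 raw reads in controls and 97489 in hypomorphic ones (log2 difference 0.75). Cmpk2, a mitochondrial nucleotide kinase, had 2437 and 3308 (1.04), Fen1, a flap endonuclease, 6227 and 7467 (0.71), and Nmnat3, an NAD-synthesizing enzyme, 1030 and 1228 (0.72). Macrod1, an ADP-ribose hydrolase, was lower with 1206 and 406 (-1.10). None of the 77 annotated Mrpl and Mrps genes of the mitochondrial ribosome was listed.

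Genes known mainly from neurons were few and low in reads. Sncb, a protein of nerve endings, had 54.8 raw reads in controls and 18.8 in hypomorphic ones and a log2 difference of -1.11. Fez1, a transport adaptor of neurons, was lower at -0.60, and Ppp2r2b, a phosphatase subunit, was higher at 0.83 with 38.0 and 41.1 raw reads. Of 14 neuronal markers 4 were listed, 3 higher and 1 lower, with summed raw reads of 358 and 419, and their part was not tested.

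The last class, of cytoskeletal, immune and other genes, was lower in 9 of 10 cases, where 58.0% of all listed genes were. Most of its lower genes had under 1000 raw reads. Of all listed genes 65.4% were lower under 100 raw reads and 67.9% from 100 to under 1000. The class gathers unlike genes, and nothing is read from the count. Tmtc1 had 1700 raw reads in controls and 467 in hypomorphic ones (log2 difference -1.40) and Ifi27l1, an interferon-related gene, 560 and 172 (-1.22). Krt14, a keratin of stratified epithelium, had 128 and 47.6 (-0.95), while of the 9 other epithelial markers only Trp63 was listed, at 1.01. Lgals12 (-1.44), Dact2 (-0.87), Gcet2 (-0.85), Gimap5 (-0.68), Ppl (-0.66) and 8430408G22Rik (-0.61) were lower. Hcfc1, a chromatin cofactor, was higher with 16565 and 18308 raw reads, a raw ratio of 1.11 and, at 0.59, the smallest higher difference.

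Most pathways of the organelle contributed few listed genes or none. No gene of 15 listed for mitochondrial biogenesis (Ppargc1a, Tfam and Nrf1 among them) and none of 8 for fusion and fission was in the table. The list for the tricarboxylic acid cycle gave 1 of 21, Me3, a malic enzyme and not an enzyme of the cycle itself. That for fatty acid oxidation gave 1 of 19, the acyl-CoA synthetase Acsl6. One-carbon metabolism gave 2 of 12 and the urea cycle and arginine 2 of 11. By symbol, none of the 18 annotated Atp5 genes, the 8 Uqcr genes or the 13 genes of mitochondrial DNA was listed, and of 43 Nduf genes only Ndufa4l2 was, lower at a log2 difference of -0.94. The families were counted in GENCODE, and whether each gene was counted and tested by the authors is not known here, so a gene that is not listed says nothing on whether its level was equal.

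**Figure D4:**
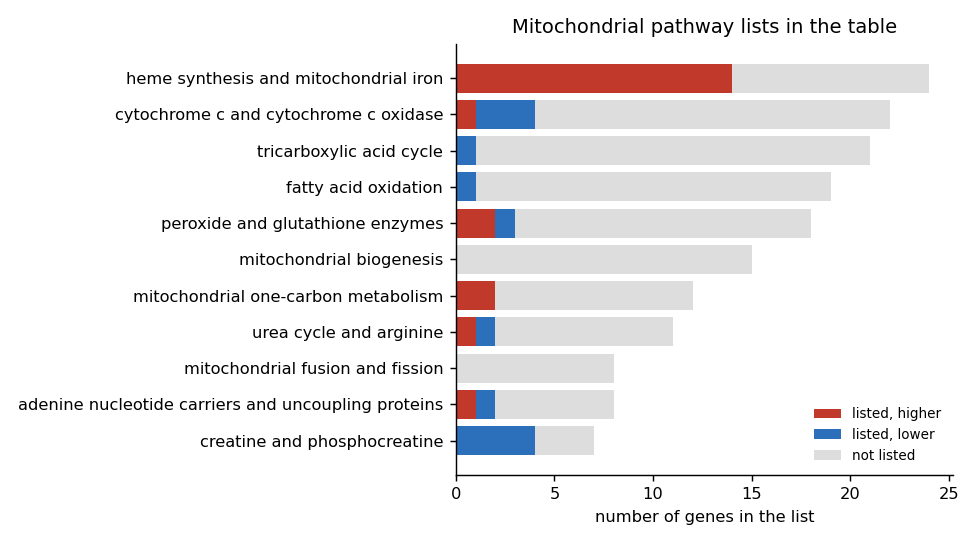
Number of genes (x axis) of each mitochondrial pathway list that were listed as higher (red), listed as lower (blue) or not listed (grey) in the authors' table. Heme synthesis has 14 of 24 genes listed, all higher, and creatine has 4 of 7, all lower.

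Both directions were found among inner membrane proteins and outside them. Of the 18 genes that also carry the inner membrane term 10 were lower and 8 higher, and of the 49 others 24 were lower and 25 higher. By abundance the directions were divided unevenly. Of the 16 genes under 100 raw reads 12 were lower, of those from 100 to under 1000 reads 14 of 16, of those from 1000 to under 10000 reads 5 of 20, and of the 15 genes above these 3. Over all listed genes the shares lower in these bins were 65.4%, 67.9%, 41.0% and 23.2%. Of the 67 genes with the mitochondrion term, the most abundant per kilobase of transcript in control hearts were Fth1, Gpx1, Prdx2, Pln, Lars2 and Cox6a2. Not all of these act mainly in mitochondria, Pln among them. In hypomorphic hearts Pln ranked 9 and Cox6a2 10, though with no spread between hearts the order of neighbours cannot be tested.

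The threshold lay close to many genes. A fold under 1.6 was found for 16 of the 67, 8 of them higher, the smallest being 1.51. The raw log2 ratio had a counting interval that included 0 for 4 genes, Chdh, Crym and Ppp2r2b among them, all 4 listed as higher. For 8 genes the scales differed by more than 0.1 beyond the quartiles of the table (0.44 and 0.50), from 0.24 for Ckmt1 to 0.85 for Slc25a31, and the cause was not tested. An exon overlapped a gene on the opposite strand for 16 genes. Without those 16, 25 genes were lower and 26 higher.

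**Figure D5:**
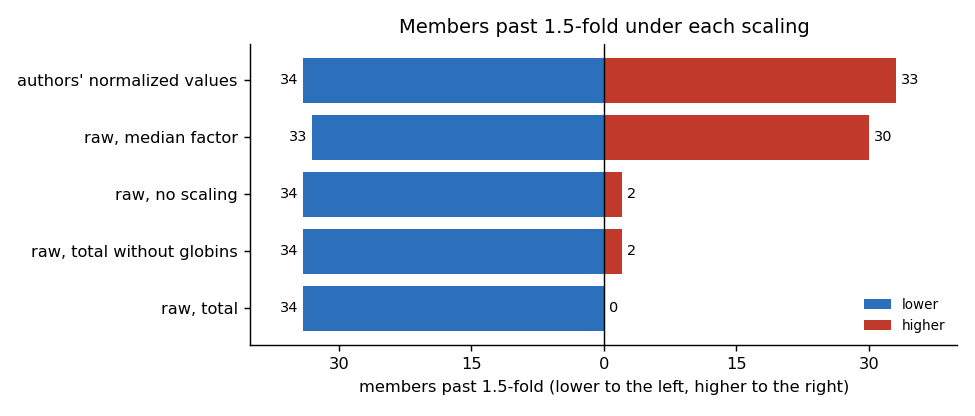
Number of mitochondrial genes past 1.5-fold, lower to the left (blue) and higher to the right (red), with the authors' normalized values and with 4 scalings of the raw group means. The median factor was taken from the authors' values, so its counts lie near theirs by construction. The other factors are smaller, so the number lower could hardly change. The number lower stays at 33 or 34, and the number higher runs from 33 as deposited to 0 when raw reads are scaled to the table's total.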

How the data were processed

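The authors made TruSeq libraries from total RNA of 3 control and 3 hypomorphic hearts and read them on a Genome Analyzer IIx. The submitters' processing notes name CASAVA 1.4, TopHat and the mm9 build, and reads on RefSeq genes were compared with Avadis NGS, keeping genes past its AC test and 1.5-fold. The deposited raw values are means of estimated counts per group, not scaled for depth. The deposited normalized values hold 1 log2 value per gene and group, set against a baseline of that gene by a method not given in the sources used here. The table also holds the authors' fold changes and directions, which were not used. Differences were computed from the group values. The design planned no test for group values, and depth per heart, and so the precision it gives, is unknown. Counting intervals are exact binomial, from 3 times each mean. Positions, lengths and overlaps came from GENCODE M1 on mm9, in which all 67 genes were placed, and promoters from RefSeq GRCm38.p6, matched for 54. Every gene of the set could be named, with full values for the 10 largest changes per direction with at least 50 raw reads and for the classes of heme, respiration, phosphocreatine, peroxide and heart muscle. The set, classes, lists and motifs were chosen with earlier results of these data known. The counts cover all 67 genes, but some genes are not reported here singly. The steps were tested on simulated data with known depths in which most genes were unchanged. The listed genes differ from this, so that test cannot say which scaling is right here. Scripts used scipy 1.17.1, pandas 2.3.3, matplotlib 3.10.9, statsmodels 0.14.6 and numpy 2.4.6 under Python 3.11.15.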

Additional observations from a re-analysis of the deposited data

How the results depend on the processing

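The median factor was taken from the authors' values and the other factors were smaller, so the number lower could hardly change with scaling. The number lower (34) was 33 with the median factor of the table and 34 without scaling and with either total. It was 22 with at least 100 raw reads (29 higher, 43.1% lower), 13 with a fold of at least 2 and 13 among genes with a compartment term. The number higher (33) was 30 with the median factor, 2 without scaling, 2 with the total without globin genes, 0 with the table's total, 5 with a fold of at least 2 and 12 with a compartment term. The share lower (50.7%) was 94.4% both unscaled and after scaling to the total less globin genes, 100% with the table's total and 72.2% with a fold of at least 2. Without GO exclusions it was 49.3%. Added after the data were seen, it was 60.7% (34 lower, 22 higher) without heme and iron and 49.0% without genes that overlap an opposite strand.

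With the total without globin genes, none of the 65 genes described singly reversed in log2 difference. With the table's total, which sums only listed genes and includes globin genes, 21 higher genes reversed. They were Prdx2 (-0.26), Ppp2r2b (-0.25), Hsd3b1 (-0.25), Tfrc (-0.24), Crym (-0.23), Hcfc1 (-0.22), Ucp2 (-0.20), Fth1 (-0.19), Mpst (-0.19), Bcat1 (-0.16), Glrx5 (-0.15), Lars2 (-0.14), Gpx1 (-0.12), Nmnat3 (-0.11), Tmem14c (-0.11), Fen1 (-0.11), Slc25a38 (-0.061), Bzrap1 (-0.060), Cox6b2 (-0.044), Mthfd2 (-0.034) and Acss1 (-0.020). The factors applied were 1.38, 1, 0.990 and 0.775, and beyond the factor the cause was not tested.

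No paired analysis was possible because single hearts have no values in the table. This also kept fits of counts, leaving out a heart and filters per heart from being run.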

Other observations

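Besides Alas2, 4 other genes with the mitochondrion term were removed by the excluded GO terms. Th, the tyrosine hydroxylase of catecholamine synthesis, had 69.5 raw reads in controls and 124 in hypomorphic ones (log2 difference 1.31), and its raw log2 ratio of 0.84 was above that of every mitochondrial gene but Slc25a21. Slc22a4, an organic cation transporter, had 1056 and 1484 raw reads (1.09), and Slc25a37, the iron importer of red blood cell precursors, 81312 and 108632 (1.09). Pdk3, a kinase that restrains pyruvate dehydrogenase, was the lower one, with 14722 and 6900 raw reads (-0.63).

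Cmpk2 and Rsad2 are neighbouring genes that interferon induces together in many cells. In these hearts the log2 difference was 1.04 for Cmpk2 and -0.95 for Rsad2, with 182 raw reads in controls and 67.7 in hypomorphic ones for Rsad2. Rsad2 was chosen after its values were seen, and the cause was not tested. Ndufa4l2, which hypoxia induces, had 587 and 218 raw reads.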
